A study of Mus musculus with 8 samples.

Results

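The immunoglobulin kappa variable (Igkv) genes were examined in RNA from long-term hematopoietic stem cells (LT-HSCs) of asrij knockout (KO) and asrij floxed mice. The members are all genes whose symbol starts with Igkv and whose biotype is IG_V_gene in the GENCODE M21 annotation of GRCm38, which gave 100 genes of the 54749 with a transcript in the deposited tables. They lie on chromosome 6 from 67555497 to 70704177, with 38 on the plus and 62 on the minus strand, and their symbols place them in 20 subfamilies. This rule uses the annotation alone, but the family was chosen with earlier results of these data known.

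The data are 8 RNA-seq libraries from bone marrow LT-HSCs of mice labelled as 6 months old, with 1 library per mouse. The floxed group (replicates 1, 3, 4 and 5) carried homozygous floxed asrij, and the KO group (replicates 2, 3, 4 and 5) was a whole-body knockout of the same gene, so the deletion was not limited to blood cells. Asrij is the gene Ociad1, and C57BL/6J was the study's wild-type strain. The cells were sorted by surface markers from bone marrow of separate animals, and mice of both sexes were used in the study.

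A kappa light chain is assembled in a developing B cell by joining 1 of many V segments to 1 of a few J segments upstream of the single constant gene, Igkc, and each B cell clone and its plasma cell descendants then transcribe the joined V segment. An unjoined V segment can also be transcribed at a low level, as germline transcription. Joined kappa genes are a feature of B lineage cells, and LT-HSCs are not known for them. In bulk libraries such as these, fewer cells of a type and less RNA per cell cannot be told apart.

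The V segment supplies most of the variable domain and ends at a conserved cysteine and the first part of the third complementarity-determining loop. The last 60 bases of the reference transcript, from GENCODE M21 (GRCm38), are printed 5′ to 3′ for 9 members on which the results turn. Igkv15-103 had the highest level, Igkv14-126, Igkv12-46 and Igkv6-32 were still called under a replicate block, Igkv14-100 and Igkv4-58 had large decreases, and Igkv9-120, Igkv9-124 and Igkv4-69 had the highest log2 fold changes. Capitals mark the letters TANTANTGN on the transcript strand, which hold the conserved tyrosine and cysteine codons near the end of a V segment when N is C or T.
Igkv15-103: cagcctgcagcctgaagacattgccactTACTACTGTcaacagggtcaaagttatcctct
Igkv14-126: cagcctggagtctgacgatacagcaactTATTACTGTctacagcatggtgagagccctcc
Igkv14-100: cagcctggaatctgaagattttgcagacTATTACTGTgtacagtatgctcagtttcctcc
Igkv12-46: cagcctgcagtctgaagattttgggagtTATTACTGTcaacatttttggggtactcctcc
Igkv6-32: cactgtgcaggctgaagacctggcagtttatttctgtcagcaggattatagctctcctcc
Igkv4-58: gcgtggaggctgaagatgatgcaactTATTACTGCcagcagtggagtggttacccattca
Igkv4-69: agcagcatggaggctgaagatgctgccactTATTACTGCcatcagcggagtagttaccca
Igkv9-120: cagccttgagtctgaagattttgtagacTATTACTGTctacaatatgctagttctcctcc
Igkv9-124: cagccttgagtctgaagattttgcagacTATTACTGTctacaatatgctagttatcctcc
These letters stood in the last 60 bases of 79 of the 100 members, against 1.34% of all 141515 annotated transcripts searched in the same window on the same strand. Igkv6-32 was among the members without them. Igkv9-120 and Igkv9-124 differed at 2 of the 60 bases, and Igkv14-126 and Igkv14-100 at 15.

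Sequence is shared within the family, which bears on how reads were assigned. Of the 100 members, 22 shared no 50-base stretch of their transcript with another gene, and 16 shared at least 50% of their stretches. For 76 members the gene with the most shared stretches was another Igkv gene or an Igkv pseudogene. Among the members named here, Igkv4-59 shared 74.3% and Igkv1-110 50.9%, while Igkv15-103, Igkv14-126, Igkv14-100, Igkv1-88, Igkv12-38 and Igkv6-32 shared none. Counts of members that share sequence are uncertain, since a read from one could be counted on another.

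The libraries held 23412829 to 44874882 gene counts. Levels are given as CPM, a gene's counts as a share of the library size after TMM scaling, which adjusts for differences in composition. Ociad1, the targeted gene, had a log2 fold change of -1.58 (SE 0.27, edgeR quasi-likelihood adjusted p = 0.0249). Its level was 41.6, 66.9, 36.7 and 31.3 CPM in the floxed and 15.2, 19.7, 12.5 and 11.7 CPM in the KO libraries, lower in every KO library but not absent. Of the 9 HSC markers listed, all had counts, and their summed level was 80.9 to 86.5 CPM in floxed and 77.0 to 87.7 CPM in KO libraries. Procr, which marks LT-HSCs, was near 0, with a mean of 0.344 CPM in floxed and 0.544 CPM in KO libraries. Floxed replicate 3 stood apart from the other floxed libraries in the Igkv genes, and the values of the main results without it are given beside them.

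Igkv transcripts were lower in KO than in floxed LT-HSCs as a family. Summed over the 100 members, the level was 408.8, 150.5, 419.8 and 429.0 CPM in floxed replicates 1, 3, 4 and 5. In KO replicates 2, 3, 4 and 5 it was 85.1, 87.9, 68.6 and 71.6 CPM, and every list of library values keeps this order. No KO library reached the lowest floxed one, and floxed replicate 3 lay far below the other floxed libraries. The floxed libraries averaged 352.0 ± 134.6 CPM (SD, n = 4) and the KO libraries 78.3 ± 9.61 CPM (SD, n = 4), so that the KO mean was 22.2% of the floxed mean, or 18.7% without floxed replicate 3. Because the sum runs over chosen members, it was not tested. The libraries numbered 4 and 5 deviated from their group means in the opposite direction to those numbered 1 to 3 over all genes, and within both of these sets the sum was lower in KO. The KO mean was 30.9% of the floxed mean among numbers 1 to 3, and 16.5% among numbers 4 and 5.

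**Figure D1:**
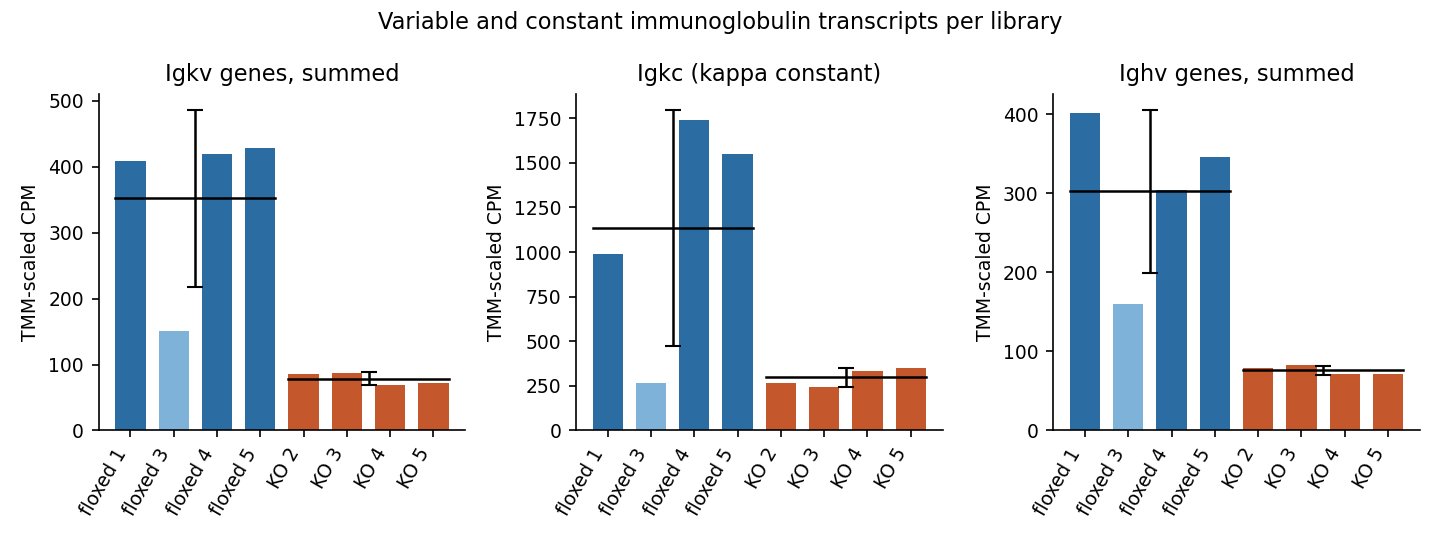
Summed Igkv level, level of Igkc and summed level of the heavy chain variable (Ighv) genes in each of the 8 libraries, in TMM-scaled CPM, with the bars starting at 0. Horizontal lines are group means and error bars are SD (n = 4), and floxed replicate 3 is drawn in a lighter colour. The Igkv sum of the KO libraries lies between 68.6 and 87.9 CPM, below the lowest floxed library at 150.5 CPM.

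Individual members were compared in a fit over all 21902 genes that passed edgeR's default filter on low counts. A gene was called when its adjusted p was under 0.05 and its absolute log2 fold change above 1.5. Of the 100 members, 71 passed the filter, 28 had counts too low to pass, and 1, Igkv8-26, had no count in any library. A member could pass this filter through its floxed libraries alone, so the counts over the members that passed are a description and do not support a direction. Of the 71 tested members, 69 had a negative and 2 a positive log2 fold change. In KO libraries 35 members were called lower and 0 higher (edgeR), where 0.74% of all genes tested were called lower and 0.452% higher. At an unadjusted p under 0.05, 61 members were lower and 0 higher, against 12.1% and 9.63% of all genes tested. DESeq2 called 50 lower and 0 higher, where it called 1.42% of all genes lower. With limma-voom 11 were lower and 0 higher, where 0.333% of all genes were called lower. The median log2 fold change over the 71 members was -2.28, against -0.006 over all genes tested. Without overlap between the groups, 39 tested members were lower in KO, where 7.66% of all genes tested were so, and 1 was higher, where 7.1% were so.

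The number of calls depended on the libraries used. A block for the replicate number, fitted in the 6 libraries numbered 3, 4 and 5, left 3 members called lower, Igkv14-126, Igkv12-46 and Igkv6-32, where 0.0833% of all genes were called lower. All 3 were among the 35. Under the block 68 of the 71 members had a negative log2 fold change, with a median of -2.04. Without floxed replicate 3, 77 members passed the filter and 62 were called lower, among them all 35, where 1.41% of all genes were called lower. There were 6 members called lower without floxed replicate 1, 13 without floxed replicate 4 and 7 without floxed replicate 5, where 0.0853%, 0.452% and 0.177% of all genes were called lower. Without KO replicates 2, 3, 4 and 5 in turn there were 7, 10, 6 and 7, against 0.107%, 0.152%, 0.0969% and 0.0968% of all genes. With RLE size factors, library totals alone, no filter on low counts, at least 1 CPM in 4 libraries and sums over transcripts, 35, 43, 43, 31 and 30 members were called lower. The shares of all genes called lower in these fits were 0.758%, 1.16%, 0.547%, 0.786% and 0.613%. A block that set numbers 4 and 5 against the rest gave 50 members, where 1.47% of all genes were called lower. The median log2 fold change of the members stayed between -2.58 and -1.95 in every alternative fit run.

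Floxed replicate 3 fell among the KO libraries for many members. It was at or below the highest KO library for 30 of the 71 tested members and between the KO and the other floxed libraries for 33. It lay within the range of the other floxed libraries for 3 members and above them for 5. Against floxed replicates 1, 4 and 5 alone, every KO library was lower for 64 of the 71.

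The most abundant members were the same 12 genes whether ranked by mean CPM over the 8 libraries or by mean CPM per kb of transcript. Of these 12, 9 were called lower. Igkv15-103 (chromosome 6, 68437440 to 68437925, plus strand) was the highest, at 35.9 CPM per kb. It had 20.5, 22.1, 18.1 and 17.2 CPM in floxed and 9.20, 10.1, 5.11 and 5.47 CPM in KO libraries. The groups did not overlap, floxed replicate 3 was the highest library, and the log2 fold change of -1.38 (SE 0.25, edgeR adjusted p = 0.0280) did not reach the limit on fold change. With the replicate block its adjusted p was 0.0715.

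Igkv14-126 (67896172 to 67896642, plus strand), second in level per kb, had the lowest adjusted p of all members. Its level was 16.1, 9.59, 20.1 and 20.2 CPM in the floxed libraries and 1.08, 1.196, 1.21 and 1.23 CPM in the KO libraries. All KO libraries lay close together, far below the lowest floxed library. The log2 fold change was -3.80 (SE 0.275, edgeR adjusted p = 0.000455), and the adjusted p was 0.0160 with the replicate block.

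Igkv12-46 and Igkv6-32, chosen for description after their values had been seen, were the other members called with the block. Igkv12-46 had 7.38, 7.05, 9.06 and 6.17 CPM in floxed and 1.15, 0.962, 1.17 and 1.27 CPM in KO libraries. Igkv6-32 had 5.30, 5.37, 4.85 and 5.52 CPM in floxed and 0.564, 0.858, 0.674 and 0.507 CPM in KO libraries. In both, floxed replicate 3 lay within the range of the other floxed libraries, unlike in most members. The log2 fold changes were -2.70 for Igkv12-46 (edgeR adjusted p = 0.0010, 0.0289 with the block) and -3.00 for Igkv6-32 (edgeR adjusted p = 0.0011, 0.0373 with the block).

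Igkv6-23 and Igkv6-15, both of subfamily 6 and among the 12 most abundant, followed the more common pattern. Igkv6-23 had 21.6, 2.57, 16.8 and 19.8 CPM in floxed and 1.56, 0.936, 0.922 and 1.30 CPM in KO libraries. Igkv6-15 had 18.2, 2.95, 15.8 and 20.2 CPM in floxed and 2.23, 1.79, 0.780 and 1.38 CPM in KO libraries. In both, the groups did not overlap but floxed replicate 3 was nearer to the KO than to the other floxed libraries. The log2 fold changes were -3.68 and -3.19, and the edgeR adjusted p-values of 0.0210 and 0.0266 became 0.110 and 0.154 with the replicate block.

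Igkv1-117 and Igkv1-110, whose transcripts share 49.9% and 50.9% of their 50-base stretches with other genes, gave similar values. Igkv1-117 had 17.2, 7.64, 17.8 and 16.8 CPM in floxed and 3.18, 3.09, 2.73 and 2.36 CPM in KO libraries, a log2 fold change of -2.38 (edgeR adjusted p = 0.0064, 0.0895 with the block). Igkv1-110 had 17.2, 4.52, 15.1 and 16.1 CPM in floxed and 3.33, 2.89, 2.77 and 1.92 CPM in KO libraries, a log2 fold change of -2.27 (edgeR adjusted p = 0.0264, 0.148 with the block). Reads of these genes cannot be told apart over the shared stretches.

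Of the other abundant members, Igkv10-96, Igkv3-4, Igkv12-44 and Igkv1-88 were called lower, with log2 fold changes of -2.32, -3.72, -3.17 and -4.06. With the replicate block their adjusted p-values (edgeR) were 0.154, 0.219, 0.188 and 0.216. For Igkv3-4 and Igkv12-44 floxed replicate 3, at 1.21 and 1.49 CPM, lay within the KO range, which reached 1.38 and 1.67 CPM. Igkv1-135 had non-overlapping groups, with 6.64 to 9.82 CPM in floxed and 3.02 to 5.20 CPM in KO libraries, and a log2 fold change of -1.12 (edgeR adjusted p = 0.0411, 0.185 with the block), short of the limit on fold change. Igkv4-59 had 8.57, 0.794, 16.0 and 14.6 CPM in floxed and 0.988 to 1.99 CPM in KO libraries, and did not pass (log2 fold change -2.73, edgeR adjusted p = 0.0676). Without floxed replicate 3 it was called lower (edgeR adjusted p = 0.000555).

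**Figure D2:**
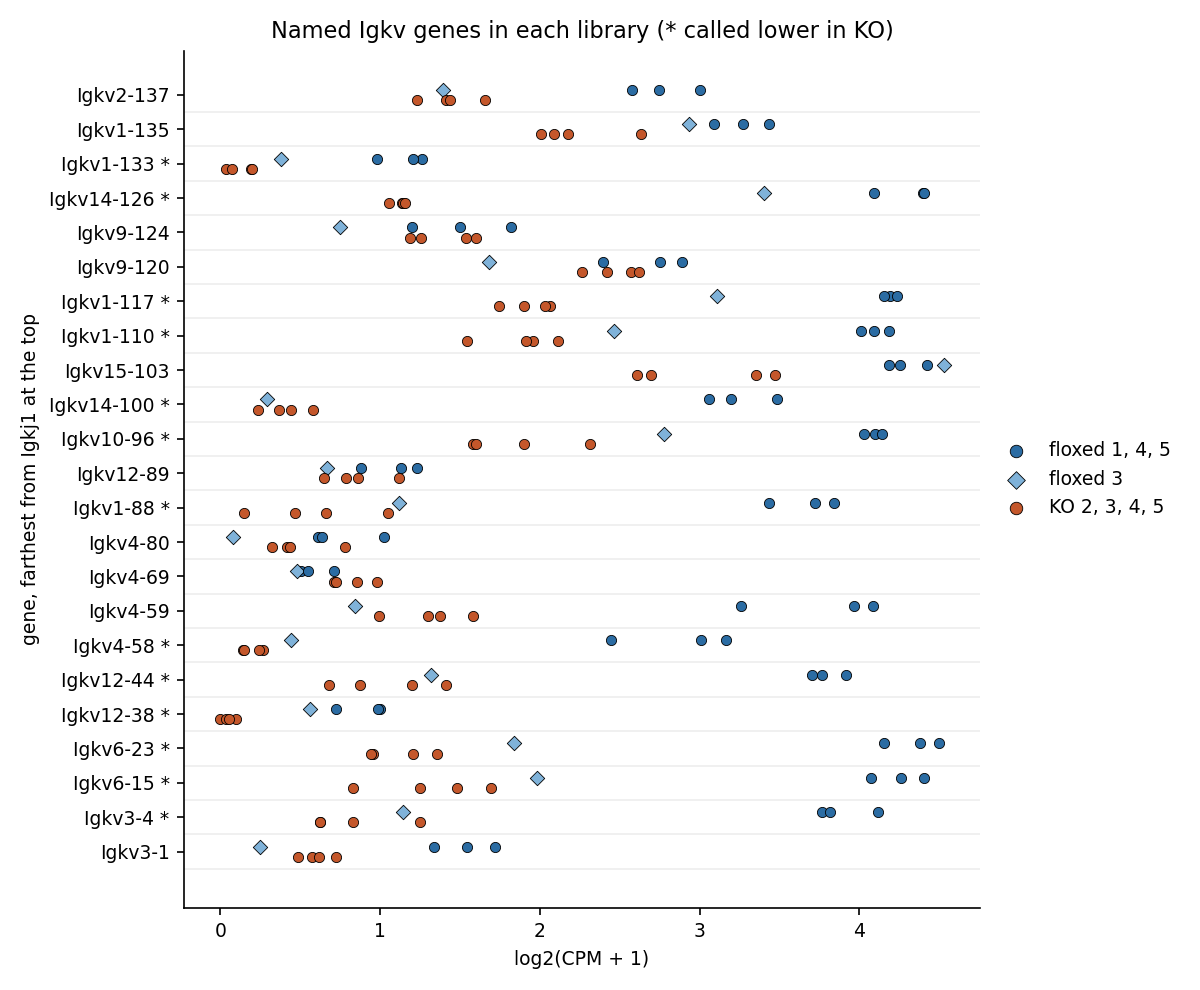
Level of the 23 Igkv genes named by rule in each library, on the log2(CPM + 1) scale, ordered from the farthest from Igkj1 at the top to the nearest at the bottom. Each point is 1 library, the diamond is floxed replicate 3, and an asterisk marks the genes called lower in KO. Floxed replicates 1, 4 and 5 lie to the right of the KO libraries for most genes, whereas in Igkv9-124, Igkv9-120, Igkv12-89, Igkv4-80 and Igkv4-69 the KO and floxed points are close together.

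The largest called decreases were in Igkv4-58, Igkv12-38, Igkv14-100, Igkv1-88, Igkv14-126, Igkv3-4, Igkv6-23 and Igkv1-133. Igkv4-58 (69500254 to 69500786, minus strand) had 4.46, 0.359, 7.06 and 7.97 CPM in floxed and 0.205, 0.104, 0.106 and 0.181 CPM in KO libraries. These KO values rest on 8, 4, 3 and 5 counts, and the log2 fold change was -5.01 (SE 0.86, edgeR adjusted p = 0.0254, 0.0962 with the block). Igkv12-38 had 38, 25, 23 and 17 counts in the floxed libraries against 0, 1, 2 and 1 in the KO libraries, a log2 fold change of -4.49 (edgeR adjusted p = 0.0186, 0.107 with the block). Igkv14-100 had 10.2, 0.227, 8.16 and 7.32 CPM in floxed and 0.177 to 0.494 CPM in KO libraries, so that floxed replicate 3 fell inside the KO range although the gene was called (log2 fold change -4.25, edgeR adjusted p = 0.0426, 0.271 with the block). Igkv1-133 had 0.976, 0.303, 1.40 and 1.30 CPM in floxed and 0.0256 to 0.145 CPM in KO libraries, a log2 fold change of -3.45 (edgeR adjusted p = 0.0338, 0.122 with the block). Of the 35 members called lower, 31 had non-overlapping groups, and the exceptions were Igkv14-100, Igkv12-44, Igkv3-4 and Igkv8-21, the last named after its values had been seen (edgeR adjusted p = 0.0417, 0.152 with the block).

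A few members had log2 fold changes near or above 0. The highest log2 fold changes were 0.69 for Igkv4-69, 0.07 for Igkv9-124, -0.02 for Igkv9-120, -0.26 for Igkv12-89 and -0.33 for Igkv4-80, and none of these 5 passed the test. Igkv4-69 had 0.422, 0.397, 0.638 and 0.460 CPM in floxed and 0.974, 0.806, 0.639 and 0.652 CPM in KO libraries (edgeR adjusted p = 0.296). Its groups did not overlap, with KO higher, but its counts were low, at 12 to 38 per library. Igkv9-120 had 4.27, 2.21, 5.74 and 6.40 CPM in floxed and 4.95, 5.15, 3.80 and 4.35 CPM in KO libraries, so that the groups overlapped (SE of the log2 fold change 0.32, edgeR adjusted p = 0.978). The KO minus floxed difference in mean level was 1.81 CPM among numbers 1 to 3 and -1.998 CPM among numbers 4 and 5, with no overlap in either set. The sign of the change in Igkv9-120, Igkv9-124 and Igkv4-80 turned in some of the alternative fits. The related Igkv9-129, chosen after its values had been seen, had 4.30, 0.0567, 4.08 and 3.64 CPM in floxed and at most 0.338 CPM in KO libraries, with a log2 fold change of -4.32 that did not pass (edgeR adjusted p = 0.0728). Without floxed replicate 3 it was called lower (edgeR adjusted p = 0.00368).

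Among the members under the filter, the summed level was 11.8, 5.24, 13.4 and 12.3 CPM in floxed and 2.46, 2.11, 2.09 and 2.17 CPM in KO libraries. These genes were thus lower in every KO library as a sum too. Igkv4-74, chosen after its values had been seen, had 104, 100 and 126 counts in floxed replicates 1, 4 and 5 and 4 in floxed replicate 3, against 5 to 11 in the KO libraries.

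By V subfamily, the sum of the members was lower in every KO library than in every floxed library for 12 of the 20 subfamilies, overlapped for 8 and was higher for 0. At least 1 member was tested in 16 subfamilies and called lower in 11. Subfamily 14 had the lowest KO level relative to floxed among subfamilies with several tested members. Its sum was 32.6, 11.4, 33.8 and 33.8 CPM in floxed and 2.54, 2.63, 1.84 and 2.32 CPM in KO libraries, and all 3 tested members of its 4 were called lower. The KO mean was 8.35% of the floxed mean. In subfamily 6, 7 of the 8 tested members were called lower and the KO mean was 12.1% of the floxed mean. Its sum was 61.0, 18.7, 51.1 and 61.4 CPM in floxed and 6.64, 6.29, 4.68 and 5.65 CPM in KO libraries.

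Subfamily 4, the largest with 26 members, had 16 tested and 7 called lower, and its KO mean was 18.9% of the floxed mean. Subfamily 1 had 10 members, 6 tested and 4 called lower, at 22.7%, and subfamily 3 had 9 members, 7 tested and 3 called lower, at 18.9%. Subfamilies 8, 10 and 12 lay between 19.2% and 22.8% of the floxed mean.

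Subfamilies 9, 2 and 15 had the highest KO level relative to floxed among those with a tested member. The sum of subfamily 9 was 10.6, 2.99, 12.2 and 13.2 CPM in floxed and 6.61, 7.39, 5.18 and 6.45 CPM in KO libraries, so that floxed replicate 3 was below every KO library. The KO mean of subfamily 9 was 65.8% of the floxed mean with all libraries and 53.4% without floxed replicate 3. It was 103.0% among numbers 1 to 3 and 45.8% among numbers 4 and 5. None of its 3 tested members was called, and none of the 3 members of subfamily 2, whose KO mean was 39.2% of the floxed mean. Subfamily 15, which holds only Igkv15-103, had a KO mean of 38.4% of the floxed mean, or 40.1% without floxed replicate 3.

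**Figure D3:**
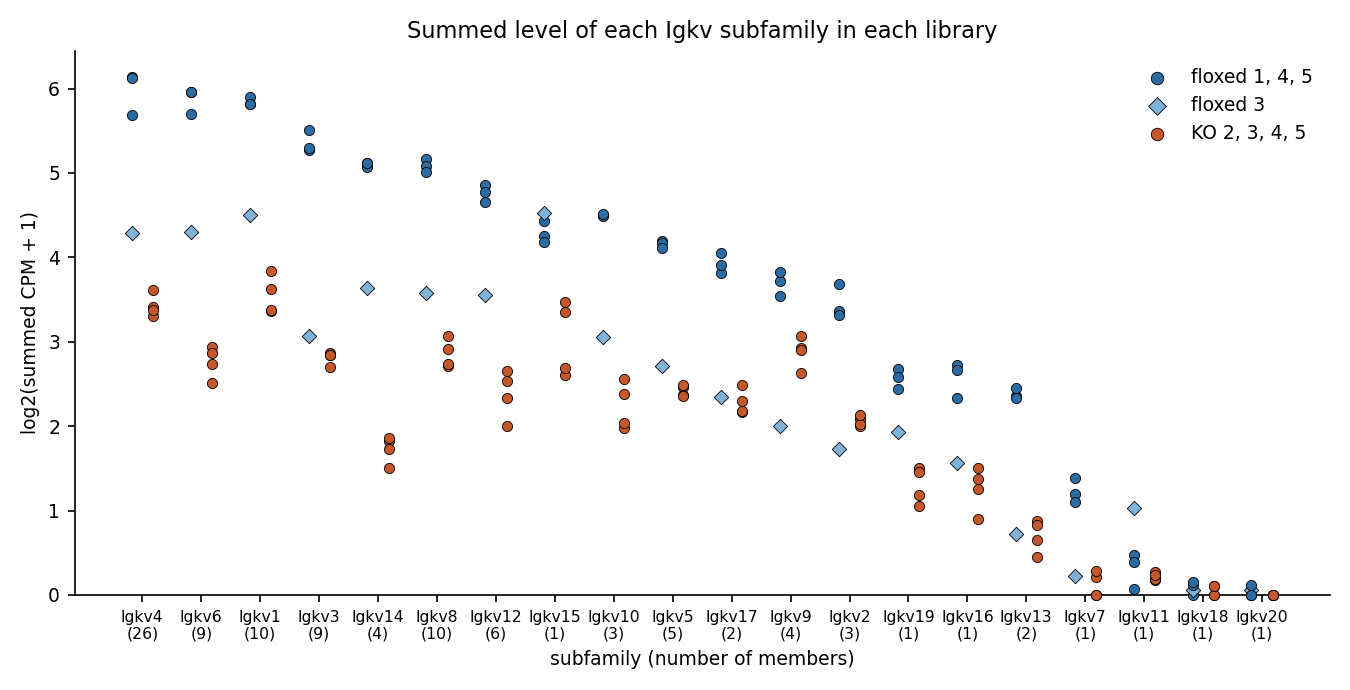
Summed level of each of the 20 Igkv subfamilies in each library, on the log2(CPM + 1) scale, ordered by the floxed mean, with the number of members in parentheses. Each point is 1 library and the diamond is floxed replicate 3. Subfamily 14 shows the widest gap between floxed and KO libraries among those with several tested members, and in subfamily 15 floxed replicate 3 is the highest library.

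Along the locus, members were lower in KO at all distances from the J segments. The first member by position, Igkv2-137, lies 3166 kb from Igkj1, and the last, Igkv3-1, 18.4 kb from it. With the members divided by position into 4 sets of 25, starting from the far end, 7, 5, 13 and 10 were called lower of 18, 16, 18 and 19 tested. The median log2 fold changes of the sets were -1.52, -2.25, -2.58 and -2.33 in that order. The KO mean of the summed level was 29.3% of the floxed mean in the farthest set, and 21.4%, 17.6% and 17.8% in the others. In each of the 4 sets the highest KO library lay below the lowest floxed one. Across the 71 tested members, Spearman's rho of the distance to Igkj1 with the log2 fold change was 0.21, given as a description since these genes share libraries and sequence.

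The end members of the locus were not called with all libraries, and both were called lower without floxed replicate 3. Igkv2-137 had 5.70, 1.63, 4.97 and 7.01 CPM in floxed and 2.15, 1.66, 1.35 and 1.70 CPM in KO libraries (log2 fold change -1.48, edgeR adjusted p = 0.0775). Without floxed replicate 3 its log2 fold change was -1.76 (edgeR adjusted p = 0.00189). Igkv2-137 is the 1 member that overlaps another annotated gene, the lincRNA Gm42889 on the same strand, so its reads cannot be told apart from those of that gene. Igkv3-1, the member nearest to Igkj1, had 1.53, 0.189, 1.91 and 2.30 CPM in floxed and 0.487, 0.650, 0.532 and 0.399 CPM in KO libraries (log2 fold change -1.49, edgeR adjusted p = 0.204). In Igkv3-1 floxed replicate 3 was below every KO library, and without it the log2 fold change was -1.86 (edgeR adjusted p = 0.00564).

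Both strands were lower in KO. Members on the plus strand have the orientation of the J segments and join them by deletion, and those on the minus strand join by inversion. Of the 28 tested members on the plus strand 12 were called lower, with a median log2 fold change of -2.11, and of the 43 tested on the minus strand 23 were called lower, with a median of -2.30. The difference between the strands was not tested.

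**Figure D4:**
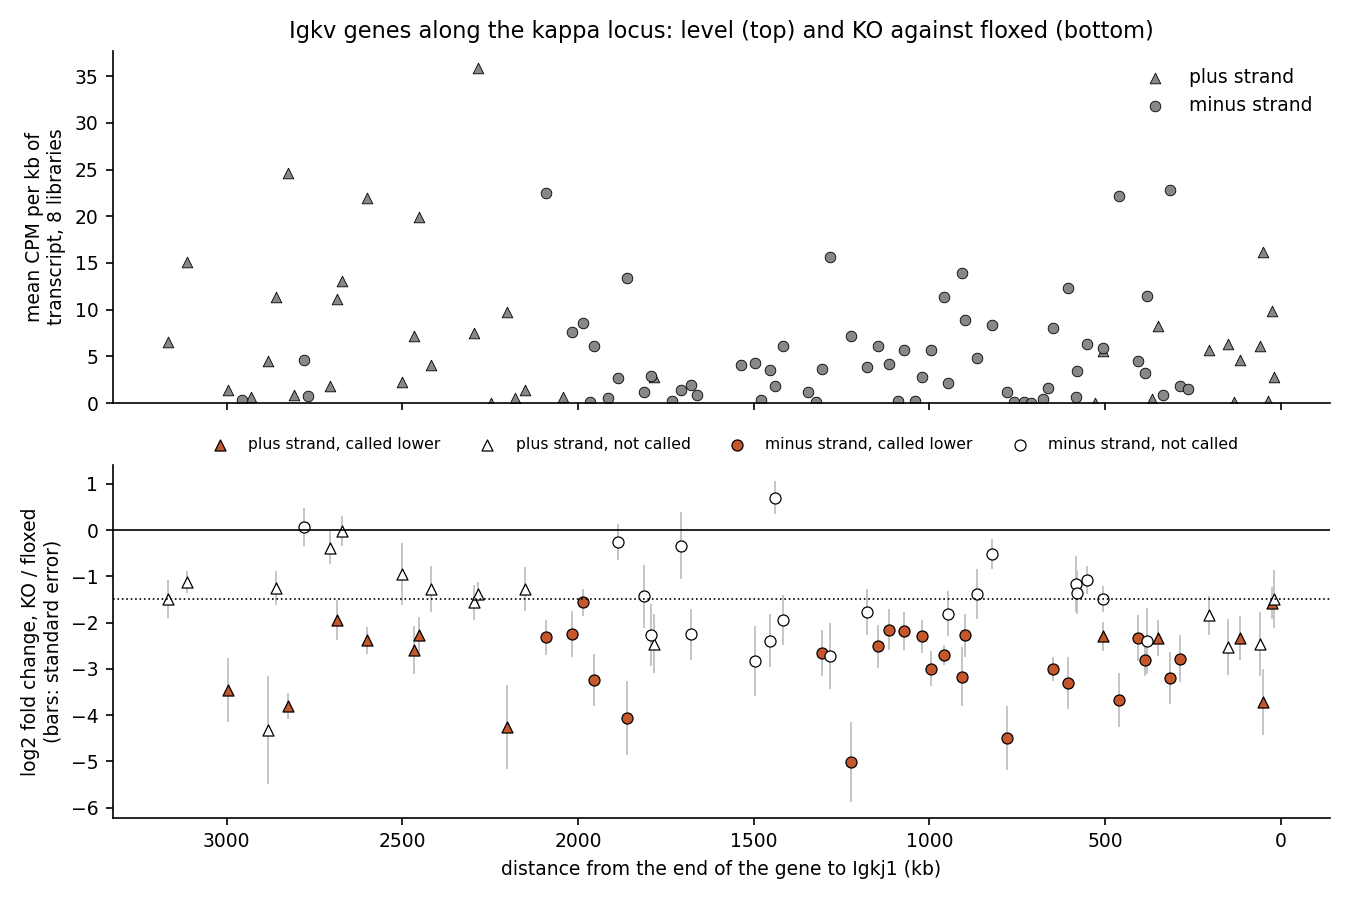
Igkv genes by distance from Igkj1 in kb, with the far end of the locus at the left. The upper panel gives the mean CPM per kb of transcript over the 8 libraries for all 100 members, and the lower panel the log2 fold change of KO against floxed with its standard error for the 71 tested, filled where called lower. The dotted line marks a log2 fold change of -1.5, and the points lie below 0 along the whole locus except for Igkv9-124 and Igkv4-69.

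The make-up of the Igkv transcripts, as the share of all Igkv counts that each member took, differed between the groups and also within the floxed group. The Igkv counts per library were 7957 to 15502 in floxed and 1933 to 3379 in KO libraries. Thinned to 1933 counts, every library held 86 to 89 members with a count, so that the number of members seen was similar at a common depth. Igkv15-103 took the largest share in floxed replicate 3 (14.7%) and in all KO libraries (7.45% to 11.5%). In the other floxed libraries the largest share was 5.30% for Igkv6-23 in replicate 1, and 4.79% and 4.71% for Igkv14-126 in replicates 4 and 5. The effective number of members, the inverse of the sum of squared shares, was 40.5, 23.1, 42.7 and 42.3 in floxed and 32.5, 30.1, 38.3 and 38.6 in KO libraries, lowest in floxed replicate 3.

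Floxed replicates 1, 4 and 5 had almost the same usage, with Pearson's r of the shares over the 100 members of 0.96 to 0.98 for the 3 pairs. The 6 pairs of KO libraries had r of 0.90 to 0.96. Between these floxed libraries and the KO libraries r was 0.57 to 0.65. Floxed replicate 3 had r of 0.58 to 0.64 with the other floxed libraries and 0.73 to 0.82 with the KO libraries. By Spearman's rho of the shares, floxed replicate 3 had 0.80 to 0.83 with the KO libraries, and floxed replicates 1, 4 and 5 had 0.77 to 0.83. The nearness of floxed replicate 3 to the KO libraries in usage thus depended on the measure. These are descriptions over members of 1 family, which share sequence, and the KO libraries have fewer Igkv counts.

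The share of 13 members was higher in every KO library than in every floxed library, that of 4 was lower and that of 83 overlapped. A share of Igkv counts has no counterpart over all genes to set beside these counts, so they are a description. Shares of a total trade against each other, so a member with a smaller decrease than the rest gains share. Igkv9-120 took 1.05%, 1.47%, 1.37% and 1.49% in floxed and 5.81%, 5.86%, 5.54% and 6.07% in KO libraries, while its own level overlapped between the groups. Igkv14-126 took 3.93%, 6.37%, 4.79% and 4.71% in floxed and 1.26%, 1.36%, 1.76% and 1.72% in KO libraries. The other members with a lower share were Igkv12-38, Igkv6-32 and Igkv5-48, the last named after its values had been seen. By subfamily, the share of 4 subfamilies (2, 5, 9 and 17) was higher and that of 2 (6 and 14) lower in every KO library. The share of subfamily 9 went from 2.64% ± 0.48 (SD, n = 4) to 8.18% ± 0.66 (SD, n = 4), and that of subfamily 14 from 7.88% ± 0.19 (SD, n = 4) to 2.97% ± 0.22 (SD, n = 4).

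**Figure D5:**
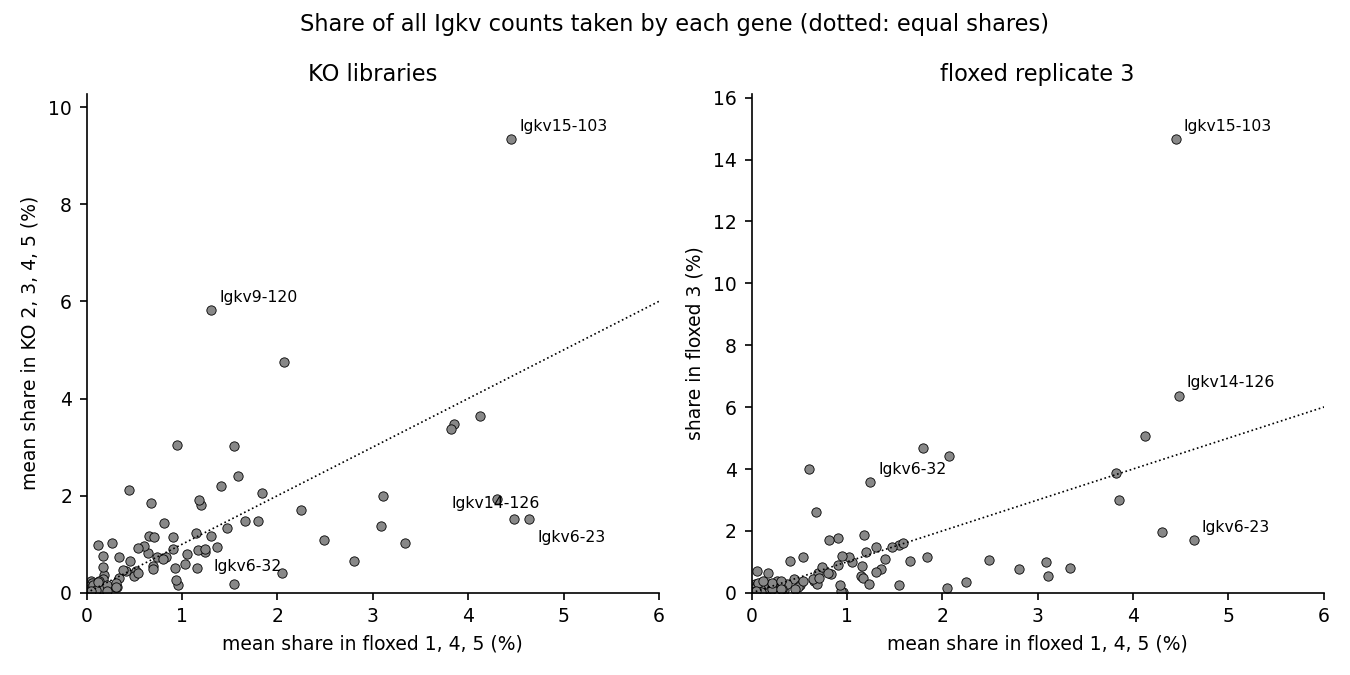
Share of all Igkv counts taken by each of the 100 members, in percent, with the mean of floxed replicates 1, 4 and 5 on the horizontal axis. The vertical axis is the mean of the KO libraries at the left and floxed replicate 3 at the right, and the dotted line marks equal shares. Igkv15-103 lies far above the line in both panels, at 14.7% in floxed replicate 3.

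The other genes of the kappa locus gave a partly different picture. Igkc, the constant gene to which a joined kappa transcript is spliced, had 990.1, 267.5, 1740 and 1551 CPM in floxed and 264.9, 241.8, 333.7 and 351.1 CPM in KO libraries. Floxed replicate 3 fell within the KO range, and the log2 fold change of -1.93 (SE 0.48) did not pass the test (edgeR adjusted p = 0.0598), although its adjusted p was 0.00066 without floxed replicate 3. DESeq2 called Igkc lower, where 1.42% of all genes were, and limma-voom did not call it. The KO mean of Igkc was 26.2% of the floxed mean. The ratio of summed Igkv to Igkc CPM was 0.413, 0.563, 0.241 and 0.277 in floxed and 0.321, 0.363, 0.206 and 0.204 in KO libraries, so the groups overlapped, and in both genotypes the libraries numbered 4 and 5 had the lowest ratios. The J segments Igkj1 to Igkj5 summed to 1.70 to 8.23 CPM in floxed and 2.31 to 3.26 CPM in KO libraries, and 0 of the 5 were called (edgeR, and likewise 0 by DESeq2 and by limma-voom), with 0 at an unadjusted p under 0.05. Their counts were low, at 3 to 112 per gene and library, and the SE of their log2 fold changes was 0.48 to 0.68, so a change could be missed. Of 60 Igkv pseudogenes, 24 had a count and 1 passed the filter, with a log2 fold change of -0.44 and no call.

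The heavy chain V genes (Ighv) were compared as the family most like this one. Of 113 such genes 73 were tested and 65 had a negative log2 fold change, with a median of -1.57. By edgeR 24 were called lower, where 0.74% of all genes tested were. DESeq2 called 36 lower and limma-voom 4, where 1.42% and 0.333% of all genes were called lower. These genes too could pass the filter through their floxed libraries alone, so the counts are a description. With the replicate block 0 Ighv genes were called lower by edgeR, and without floxed replicate 3 there were 55, where 0.0833% and 1.41% of all genes were called lower. Their summed level was 401.2, 159.7, 303.8 and 345.5 CPM in floxed and 78.7, 83.4, 71.2 and 71.5 CPM in KO libraries, so floxed replicate 3 was again the lowest floxed library. The difference between the families was not tested. Of the heavy chain constant genes, 4 of 7 tested were called lower, namely Ighg1, Ighg2b, Ighg2c and Ighg3, where 0.74% of all genes tested were so. Ighm had a log2 fold change of -0.31 (edgeR adjusted p = 0.433). None of these 4 calls was kept with the block, where the edgeR adjusted p-values were 0.242, 0.235, 0.240 and 0.137. Ighd went the other way, at 36.1 to 42.6 CPM in floxed and 59.7 to 64.9 CPM in KO libraries. Its log2 fold change of 0.69 (edgeR adjusted p = 0.0283, 0.139 with the block) was short of the limit. Igha had overlapping groups and a log2 fold change of -1.91 (edgeR adjusted p = 0.0653, 0.000706 without floxed replicate 3). For the lambda light chain list 0 of 7 tested genes were called by edgeR. DESeq2 called 2 lower and limma-voom 0, where 1.42% and 0.333% of all genes were called lower. At an unadjusted p under 0.05, 2 lambda genes were lower, where 12.1% of all genes tested were so.

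The cells were sorted as LSK, which are negative for lineage markers and positive for c-Kit and Sca1, a gate meant to leave out mature B cells and other differentiated cells. Markers of the B lineage were measured nevertheless, and they did not all move with the Igkv genes. The 10 mature B cell markers, such as Ms4a1 and Cd22, summed to 332.6, 582.6, 371.2 and 366.1 CPM in floxed and 531.3 to 608.7 CPM in KO libraries. Floxed replicate 3 lay within the KO range, and the other floxed libraries were below every KO library, so that the KO mean was 138% of the floxed mean, or 159% without that library. Of these 10, 1 had a negative log2 fold change, and 0 were called by edgeR, DESeq2 or limma-voom. At an unadjusted p under 0.05, 4 were higher and 0 lower, against 9.63% and 12.1% of all genes tested. Cd79a, Cd79b, Cd72 and Fcmr, chosen after their values had been seen, were higher in every KO library, where 7.1% of all genes tested were so. Cd79a had the largest log2 fold change of the 10, at 0.81 (edgeR adjusted p = 0.0408, 0.150 with the block), short of the limit.

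The 9 genes of pre-B cells and recombination summed to 145.03, 351.5, 165.5 and 138.4 CPM in floxed and 263.3 to 308.1 CPM in KO libraries. Here too floxed replicate 3 stood apart, above every KO library, and the KO mean was 140% of the floxed mean, or 188% without it. Vpreb1 and Vpreb2, which encode parts of the surrogate light chain, were called higher, with log2 fold changes of 1.66 (edgeR adjusted p = 0.0266, 0.118 with the block) and 1.84 (edgeR adjusted p = 0.0308, 0.154 with the block). Rag1 and Rag2, which cut the DNA for V to J joining, were not called, with log2 fold changes of -0.41 and 0.45.

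The 10 plasma cell markers summed to 326.5 to 432.3 CPM in floxed and 252.9 to 264.7 CPM in KO libraries, a sum lower in every KO library. Of the 10 genes, 3 were lower and 1 higher in every KO library, where 7.66% and 7.1% of all genes tested were so. Jchain, which joins the units of secreted IgM and IgA, was the 1 gene of the 10 called, where 0.74% of all genes tested were called lower. At an unadjusted p under 0.05, 4 were lower and 1 higher, against 12.1% and 9.63% of all genes tested. Jchain had 139.3, 57.2, 135.1 and 106.5 CPM in floxed and 40.9, 38.7, 28.7 and 30.6 CPM in KO libraries. Its log2 fold change was -1.66 (edgeR adjusted p = 0.0239, 0.138 with the block), and floxed replicate 3 was its lowest floxed library, as in the Igkv sum. Outside the naming rule, Xbp1, Prdm1, Derl3 and Mzb1 were chosen after their values had been seen. Xbp1, the most abundant of the 10, had 141.7, 67.5, 178.2 and 176.6 CPM in floxed and 85.5 to 98.7 CPM in KO libraries. Its groups overlapped, with floxed replicate 3 below every KO library. The log2 fold change of Xbp1 was -0.62 (edgeR adjusted p = 0.227, 0.00345 without floxed replicate 3). Prdm1, a transcription factor of plasma cells, was lower in every KO library, with a log2 fold change of -1.20 (edgeR adjusted p = 0.0383, 0.175 with the block) that was short of the limit. Derl3 was also lower in every KO library (log2 fold change -1.16, edgeR adjusted p = 0.0970), and Mzb1 higher in every one (log2 fold change 0.45, edgeR adjusted p = 0.163). Sdc1, which encodes the plasma cell surface protein CD138, had a log2 fold change of 0.03 (edgeR adjusted p = 0.970), and Tnfrsf17 one of -0.68 (edgeR adjusted p = 0.418). Of 12 genes for factors that act on kappa genes, such as Irf4, Spi1, Ikzf1 and Pou2f2, 0 were called by edgeR, DESeq2 or limma-voom. At an unadjusted p under 0.05, 2 of them were lower, where 12.1% of all genes tested were so. None of the markers of these lists was at 0 in all libraries, and their part in the Igkv differences was not tested.

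Markers of some other lineages differed between the genotypes, and those of others overlapped. The erythroid markers summed to 17493 to 45269 CPM in floxed and 78152 to 188014 CPM in KO libraries, and the megakaryocyte markers to 27.3 to 58.6 CPM in floxed and 130.8 to 159.0 CPM in KO libraries. Called higher were Hba-a1 of the erythroid list (log2 fold change 2.32) and Pf4, Ppbp and Gp1ba of the megakaryocyte list (2.27, 2.62 and 1.58). With the block their edgeR adjusted p-values were 0.175, 0.0160, 0.0643 and 0.0948. The neutrophil markers summed to 36921, 13255, 42281 and 37603 CPM in floxed and 19388 to 25894 CPM in KO libraries. Floxed replicate 3 was below and the other floxed libraries above every KO library, and the KO mean was 67.7% of the floxed mean, or 56.6% without it. Of the 6 neutrophil genes 0 were called by edgeR, DESeq2 or limma-voom, and 0 had an unadjusted p under 0.05. The summed T cell markers overlapped, at 33.8 to 48.8 CPM in floxed and 36.9 to 40.7 CPM in KO libraries. The sum of the NK cell markers was lower in every KO library, at 35.7 to 37.8 CPM against 41.2 to 71.7 CPM in floxed libraries. Of the 4 NK genes 1, Ncr1, was lower in every KO library, where 7.66% of all genes tested were so. Ncr1 was called lower (log2 fold change -1.72, edgeR adjusted p = 0.0291, 0.122 with the block). Nkg7, chosen after its values had been seen, made up most of the sum. It had 22.7 CPM in floxed replicate 3, below every KO library (26.3 to 29.6 CPM). With library sizes computed without haemoglobin and immunoglobulin genes, 37 Igkv members were called lower, where 0.804% of all genes were. The part of these cells in the Igkv values was not tested.

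Outside the immunoglobulin loci, the 5 tested genes whose log2(CPM + 1) followed the summed Igkv level most closely over the 8 libraries were Ptpn9, Mapre2, Mrgpra2a, Grk5 and Gm42031, with Pearson's r of 0.989 to 0.996. This is a description of the highest values among all tested genes. In each, floxed replicate 3 lay between the KO and the other floxed libraries. Gm42031, a lincRNA, had 95.3, 42.6, 117.1 and 125.8 CPM in floxed and 21.3, 20.2, 11.4 and 13.01 CPM in KO libraries.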

How the data were processed

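Sequencing reads of LT-HSC RNA were checked with FastQC, trimmed with Trim Galore and aligned with Bowtie2 to mouse reference transcripts (GRCm38/mm10) by the authors, who deposited raw counts for 138930 Ensembl transcripts in each of 8 libraries. The counting tool, its annotation release and its use of strand were not given in the sources used here. An automatic check of units could not split the columns of 7 tables, which use tabs, so the authors' counts are recorded there as another unit. Whole numbers of at least 0 were checked in all 8. The study's methods give LSK CD150+ CD48+ as the sort for this RNA and CD48- for LT-HSCs elsewhere.

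GENCODE M21 (GRCm38) held 138789 of the transcripts, and a gene was represented by the transcript that had most counts when all 8 libraries were added. The filter was filterByExpr with genotype as group, the scaling TMM, and the test the quasi-likelihood F-test (glmQLFit, glmQLFTest) of edgeR 4.0.16 under R 4.3.3. P-values of the 21902 genes tested were adjusted by Benjamini-Hochberg, and the limits for a call (adjusted p under 0.05, absolute log2 change over 1.5) follow the study's methods. DESeq2 1.42.0 and limma 3.58.1 were alternatives, beside other normalizations, filters, blocks and leaving out each library. On simulated counts for this comparison (21288 genes, 200 of them changed) edgeR recovered 87.5% of the changed genes, with 5.4% of its calls false. The changes were all set at a log2 size of 2.5, and only in genes without low counts. No library was set apart in the simulation and no pattern by replicate number was included, so these rates do not carry over to the Igkv calls. Tested members had a median SE of 0.489 on the log2 scale. Python 3.11.15, numpy 2.4.6, scipy 1.17.1 and pandas 2.3.3 were used for the other steps.

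Replicate numbers come from the sample titles. Numbers 3, 4 and 5 occur in both genotypes in different mice, and same-numbered libraries deviated together from their group means (correlations of 0.427, 0.454 and 0.707 over genes), so adjusted p-values with the block are given beside the named genes whose call it ended. Pairs with other numbers within 1 to 3 or within 4 and 5 correlated at 0.359 to 0.711.

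The members and the gene lists were chosen with earlier results of these data known. Named Igkv genes were the 12 with the highest mean CPM, the 8 called lower and the 8 called higher (0 were) with the largest change, the 5 with the highest log2 fold change and the end members of the locus. The rule also named Ociad1, Igkc, the J segments, the called genes and first 3 genes of each list, and the 5 genes most like the Igkv sum. Genes outside it whose levels or fold changes are given are marked as chosen after their values were seen. List genes that were not called are mostly given as counts.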

Additional observations from a re-analysis of the deposited data

Results flagged for a closer look

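In 102 groups of 4 libraries (the Igkv sum, the 20 subfamily sums, the named Igkv genes, Igkc, the J segments and Ociad1 in each genotype), 1 library lay far from the other 3 by Dixon's criterion on the log2(CPM + 1) scale in 22, where chance gives about 1 in 20. Of these, 21 were floxed replicate 3, below the other floxed libraries each time. Because the groups overlap in their genes, they are not independent.

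In floxed replicate 3 the Igkv sum was 150.5 CPM, against 408.8 to 429.0 CPM in the other floxed libraries. Among subfamilies, its sums were 21.7 CPM for subfamily 1 (others 55.1 to 58.5), 7.39 CPM for subfamily 3 (37.6 to 44.5), 5.56 CPM for subfamily 5 (16.3 to 17.4) and 18.7 CPM for subfamily 6 (51.1 to 61.4). They were 10.95 CPM for subfamily 8 (31.3 to 34.9), 2.99 CPM for subfamily 9 (10.6 to 13.2), 7.30 CPM for subfamily 10 (21.6 to 21.8) and 10.7 CPM for subfamily 12 (24.3 to 28.03). They were 0.643 CPM for subfamily 13 (4.04 to 4.48), 11.4 CPM for subfamily 14 (32.6 to 33.8) and 4.09 CPM for subfamily 17 (13.1 to 15.5).

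Among single genes, floxed replicate 3 had 7.64 CPM of Igkv1-117 (others 16.8 to 17.8), 4.52 CPM of Igkv1-110 (15.1 to 17.2), 0.227 CPM of Igkv14-100 (7.32 to 10.2), 5.84 CPM of Igkv10-96 (15.3 to 16.6) and 1.17 CPM of Igkv1-88 (9.81 to 13.4). It had 1.49 CPM of Igkv12-44 (12.03 to 14.1), 2.57 CPM of Igkv6-23 (16.8 to 21.6), 2.95 CPM of Igkv6-15 (15.8 to 20.2) and 1.21 CPM of Igkv3-4 (12.6 to 16.3). The 1 other case was KO replicate 5 in the sum of subfamily 3, at 5.51 CPM against 6.16 to 6.28 CPM in the other KO libraries.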

How the results depend on the processing

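The number of Igkv members called lower was 35, and it was 50 by DESeq2, 11 by limma-voom, 43 with library totals alone, 43 with no filter on low counts, 31 with at least 1 CPM in 4 libraries and 30 with sums over transcripts. Among the 57 tested members that share under 50% of their 50-base stretches it was 29. With the replicate block, in 6 libraries, 3 members and 44 of all genes were called, and the block left 0 members called higher and Ociad1 called. Leaving out 1 library gave 6 to 62 members and 51 to 857 genes, both highest without floxed replicate 3. Over all genes 261 were called, against 503 by DESeq2, 521 with numbers 4 and 5 set against the rest as a block and 651 with no limit on the fold change. Of the 261 genes 162 were lower, and of the 313 called with library totals alone 253 were lower, where the median log2 fold change of all genes was -0.196 and that of the members -2.42. The cause of these changes was not tested.

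The summed Igkv level was lower in KO by the same sign in all alternatives, with a KO minus floxed difference of -273.7 CPM, and -128.3 CPM with sums over transcripts. Both group means were lower with sums over transcripts, at 39.8 CPM in KO and 168.1 CPM in floxed libraries, against 78.3 and 352.0 CPM in the main fit. Leaving out 1 library moved the difference between -330.9 and -247.5 CPM. The log2 fold change of Ociad1 ranged from -1.75 to -1.29 when 1 library was left out, and it was not called in 5 of these 8 fits.

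Of 406 alternative values of the 23 named members, 288 kept their direction and their side of the threshold, 94 lost the call, 9 gained it and 15 changed sign. The sign changes were in 3 members. Igkv9-124 was at -0.0862 with library totals alone and between -0.18 and 0.40 with 1 library left out. Igkv9-120 was at 0.17 by limma-voom, 0.00951 with sums over transcripts, 0.0290 with the replicate block, 0.0406 with numbers 4 and 5 set against the rest, and between -0.25 and 0.17 with 1 library left out. Igkv4-80 was at 0.40 by limma-voom and between -0.74 and 0.19 with 1 library left out. Members with few counts were limited by depth, and 5 of the 35 called had under 10 counts per KO library on average.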
